A study of Bos taurus with 12 samples.

Results

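Acute phase protein genes were followed in bovine endometrium, the inner lining of the uterus, after povidone-iodine, an iodine-releasing antiseptic, had been given into the uterus of 3 cows. Probes were chosen by the gene name in the scanner files, which was HP, CP, A2M, A1BG, LBP, LTF, LCN2 or PTX3 for 28 of the 43622 probes of the array. These were 3 probes of HP, 4 of CP, 5 of A2M, 1 of A1BG, 5 of LBP, 5 of LTF, 2 of LCN2 and 3 of PTX3. Endometrium of the same 3 cows, which the labels call fertile, was biopsied on days 0, 2, 7 and 14, and RNA of each sample was hybridised to 1 one-colour Agilent array, which gave 12 arrays and 3 cows per day. Biopsies alternated between the left and right uterine horn. The labels give neither the horn of a sample, nor the stage of the oestrous cycle, nor whether the day 0 biopsy preceded the antiseptic. All cows received povidone-iodine, so the antiseptic, elapsed time, the cycle and the earlier biopsies cannot be told apart in any comparison of days.

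Acute phase proteins are plasma proteins whose synthesis, mainly in the liver, changes during infection or tissue damage under the control of cytokines such as interleukin 6, interleukin 1 and tumour necrosis factor. Several of them are also made in mucosal tissues. Haptoglobin (HP) captures free haemoglobin and is a major acute phase protein of cattle, ceruloplasmin (CP) is a copper-carrying ferroxidase, and alpha-2-macroglobulin (A2M) traps proteases. A1BG is a plasma glycoprotein of the immunoglobulin superfamily. Lipopolysaccharide binding protein (LBP) hands bacterial lipopolysaccharide to CD14, lactoferrin (LTF) binds iron, lipocalin 2 (LCN2) binds bacterial iron carriers, and pentraxin 3 (PTX3) is a soluble pattern recognition molecule that activates complement.

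The deposited value table and the links of the scanner files disagree on the sample of 10 arrays out of 12. Each table column had a correlation of 1.0 with a single scanner file (at most 0.519 with any other). All values here use the names of the value table, by which each slide holds the 4 days of 1 cow. Cow and slide therefore cannot be told apart, nor can day and position on the slide. The share of probes detected above background was 71.3 to 76.0% for 11 arrays and 63.2% for the day 2 array of cow 3, and 0 probes were saturated. Markers of endometrial tissue were present: all 11 epithelial and 10 stromal markers on the array passed the detection filter.

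Levels are log2 processed intensities minus the 75th percentile of the array, so a probe at 0 is as bright as the probe at that percentile. A probe was tested where it was well above background on at least 3 of 12 arrays, which held for 20 of the 28 probes and for at least 1 probe of each of the 8 genes. Of the tested 20, HP had 3, CP 4, A2M 2, A1BG 1, LBP 1, LTF 5, LCN2 1 and PTX3 3. The other 8 are given by their values alone. The 3 comparisons with day 0 share the day 0 arrays. Some passages state that all samples of a day lie above or below those of another. This describes 3 against 3 samples, and its share over all probes was not counted. Probes of the same gene are not separate observations.

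Some probes of HP, CP, A2M and LBP are shown, but not the tested LBP probe A_73_104583 or A2M probe A_73_P050731. The letters shown run 5′ to 3′ as the files give them, with positions in the HGSC Btau_3.1 build and the strand as listed. None is capitalised in part, since no stretch within a probe was compared. The 3 HP probes lie on the minus strand of chromosome 18 at transcript bases 921, 763 and 652.
HP A_73_104190, chr18:38133540-38133599: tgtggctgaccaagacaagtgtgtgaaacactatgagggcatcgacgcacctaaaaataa
HP A_73_P101951, chr18:38133699-38133757: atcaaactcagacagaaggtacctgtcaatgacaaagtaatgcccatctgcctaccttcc
HP A_73_P400651, chr18:38133809-38133868: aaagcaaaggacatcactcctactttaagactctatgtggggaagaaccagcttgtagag

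The CP probes lie on the plus strand of chromosome 1, and 3 of the 4 are shown because they sample the transcript at bases 564, 1625 and 3139.
CP A_73_100386, chr1:120914272-120914331: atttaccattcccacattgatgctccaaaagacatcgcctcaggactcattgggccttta
CP A_73_P415161, chr1:120925163-120925222: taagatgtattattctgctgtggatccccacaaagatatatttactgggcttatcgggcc
CP A_73_P299321, chr1:120943527-120943586: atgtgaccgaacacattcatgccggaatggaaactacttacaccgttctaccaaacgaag

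The A2M probe shown is one of the pair that passed the filter, and the LBP probes shown are a pair that was above background on a single array. All 3 lie on the plus strand. The listed interval of each is longer than the 60 bases of the probe (210, 1935 and 2580 bases), so their letters are not contiguous in the genome.
A2M A_73_P389331, chr5:108284705-108284914: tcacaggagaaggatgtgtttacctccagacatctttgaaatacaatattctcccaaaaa
LBP A_73_P314201, chr13:67824248-67826182: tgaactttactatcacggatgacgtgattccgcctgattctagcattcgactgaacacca
LBP A_73_P404941, chr13:67820346-67822925: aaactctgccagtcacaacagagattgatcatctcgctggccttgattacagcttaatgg

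One LCN2 probe is shown because the files list it on the minus strand, opposite to the other LCN2 probe on chromosome 11, and it was well above background on 0 of 12 arrays. It is not used as a measure of LCN2.
LCN2 A_73_P165927, chr11:102345756-102345815: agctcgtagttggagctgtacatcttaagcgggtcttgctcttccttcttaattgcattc

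The main contrast was day 7 against day 0, where 9 of the 20 tested probes rose and 0 fell. They were 2 probes of HP, all 4 of CP, both tested probes of A2M and the probe of A1BG. The 2 HP probes were well above background on 0 of 3 day 0 arrays and entered the test through the later days, while the HP probe measured on 2 of 3 day 0 arrays did not pass. Over all 33539 tested probes 18.2% were called in that comparison, 10.3% higher and 7.88% lower (limma, adjusted p under 0.05). The median log2 change of the 20 probes was 2.09, against 0.04 over all probes. On day 2 against day 0, 1 of the 20 rose, a probe of HP, and 7 passed at an unadjusted p under 0.05. The background on day 2 was 2.52% called (1.63% higher and 0.894% lower), and the median log2 change was 1.58 for the 20 probes and 0.00 over all. On day 14 against day 0, 0 of 20 passed (1 at an unadjusted p under 0.05), where 0.131% of all probes were called. Changes in a tissue sample can come from fewer or more cells of a type as well as from RNA per cell, and these cannot be told apart here.

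**Figure D1:**
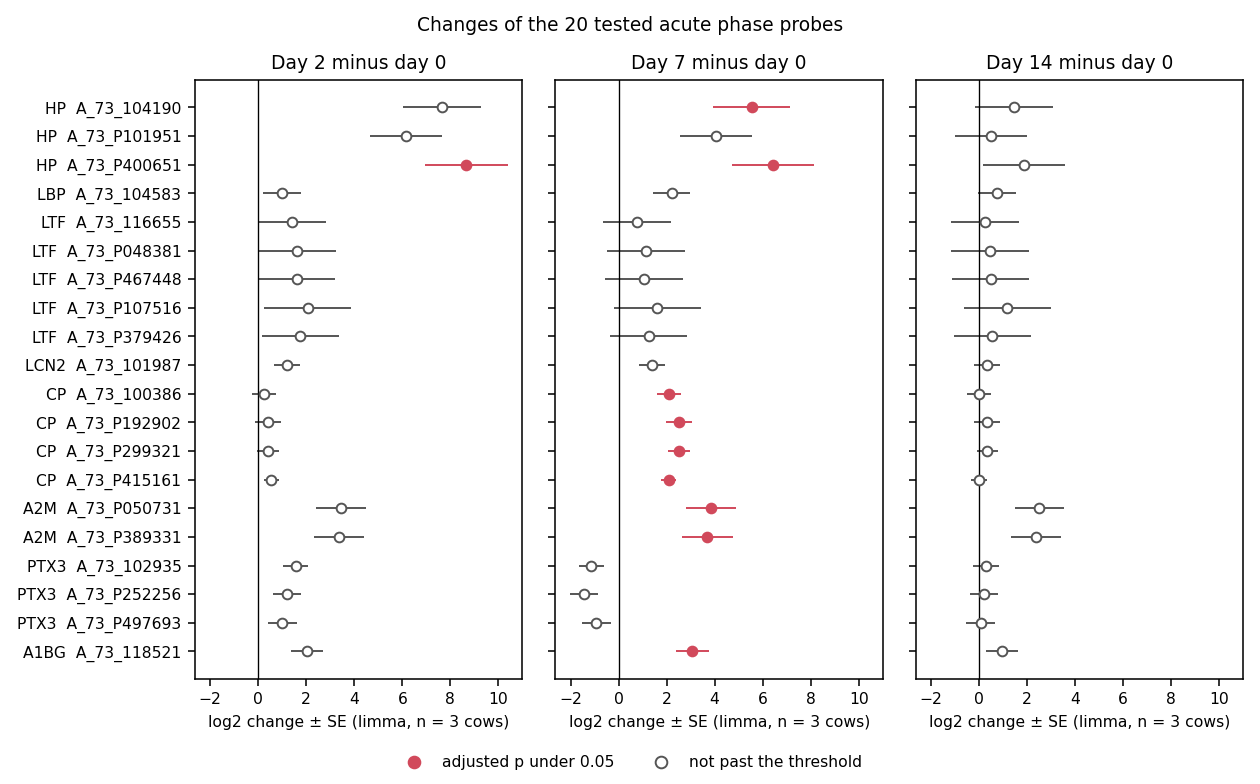
Log2 change of the 20 tested probes on day 2, day 7 and day 14 minus day 0, with the standard error from limma (3 cows per day). Filled points passed an adjusted p of 0.05. Those were 1 probe of HP on day 2, 9 probes of HP, CP, A2M and A1BG on day 7, and 0 on day 14.

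By the scaling used here, haptoglobin had the largest log2 changes of the 8 genes on days 2 and 7. This held also on its probe that was measured on 2 of 3 day 0 arrays. On day 7 that probe had 4.07 ± 1.50 (SE), against 3.83 ± 1.04 for A2M probe A_73_P050731, and the difference was not tested. With normexp background correction and quantile normalization this A2M probe had 2.80 on day 7, above the 3 HP probes (2.21 to 2.70). The day 7 ranking thus depended on the processing. Probe A_73_P400651 had log2 signals of -7.22, -8.60 and -8.46 in cows 1, 2 and 3 on day 0, where it was not well above background on any array. It had -0.31, 3.84 and -1.82 (day 2), -4.51, 1.79 and -2.30 (day 7) and -6.58, -7.79 and -4.27 (day 14). All 3 cows were higher on days 2 and 7 than any cow on day 0. The groups of day 14 and day 0 overlapped, and only cow 3 was well above background on day 14.

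Because day 0 gave only a bound, the HP rise is stated as a minimum. It compares the later day's mean with the day 0 mean of, per array, the lowest signal of a probe well above background or the probe's own signal, whichever was higher. A_73_P400651 was at least 138-fold higher on day 2 and at least 29.2-fold higher on day 7. These minima hold for the 75th percentile scaling, and no test was run on them. The adjusted p values of 0.0429 and 0.0369 (limma) belong to the fitted log2 changes of 8.66 and 6.42, which use day 0 signals below background. Wherever such a fold is given, the adjusted p beside it likewise tests the fitted change. Where an array of the brighter day was not well above background, its own signal entered the mean. The fold is then no strict minimum. With normexp background correction and quantile normalization the fitted log2 changes of this probe were 4.46 on day 2 and 2.65 on day 7, smaller than the minima, and neither passed (adjusted p = 0.0766 and 0.141, limma).

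The other HP probes followed the same course over the 12 arrays, with correlations between the 3 probes from 0.985 to 0.996. Probe A_73_104190 had -6.58, -7.86 and -6.43 (day 0), 0.04, 3.66 and -1.61 (day 2), -4.14, 1.88 and -2.01 (day 7) and -5.85, -6.91 and -3.79 (day 14). It was not well above background on any day 0 array. It was at least 33.6-fold higher on day 7 and at least 146-fold higher on day 2. Its fitted change passed on day 7 (adjusted p = 0.0484, limma) but not on day 2 (adjusted p = 0.0510, limma).

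Probe A_73_P101951 was the only HP probe with a measured level on day 0, well above background in cows 1 and 3. It had -5.89, -6.91 and -5.95 (day 0), -0.98, 3.06 and -2.36 (day 2), -4.75, 1.04 and -2.84 (day 7) and -6.25, -6.67 and -4.27 (day 14). Its log2 change was 6.16 ± 1.50 (SE, n = 3 cows) on day 2 (adjusted p = 0.0723, limma) and 4.07 ± 1.50 on day 7 (adjusted p = 0.0940, limma). The 3 cows were higher on both days than any cow on day 0, but the change did not pass the threshold.

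Cow 2 had the highest HP signal on day 2 and on day 7 on all 3 probes, and cow 3 the highest on day 14. On day 7 against day 2 HP had log2 changes of -2.12, -2.09 and -2.24 on the 3 probes, lower on day 7 in all 3 cows. None passed (adjusted p from 0.508 to 0.538, limma). On day 14 against day 7 the changes were -4.09, -3.55 and -4.54, again lower in all 3 cows, with adjusted p from 0.224 to 0.264.

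**Figure D2:**
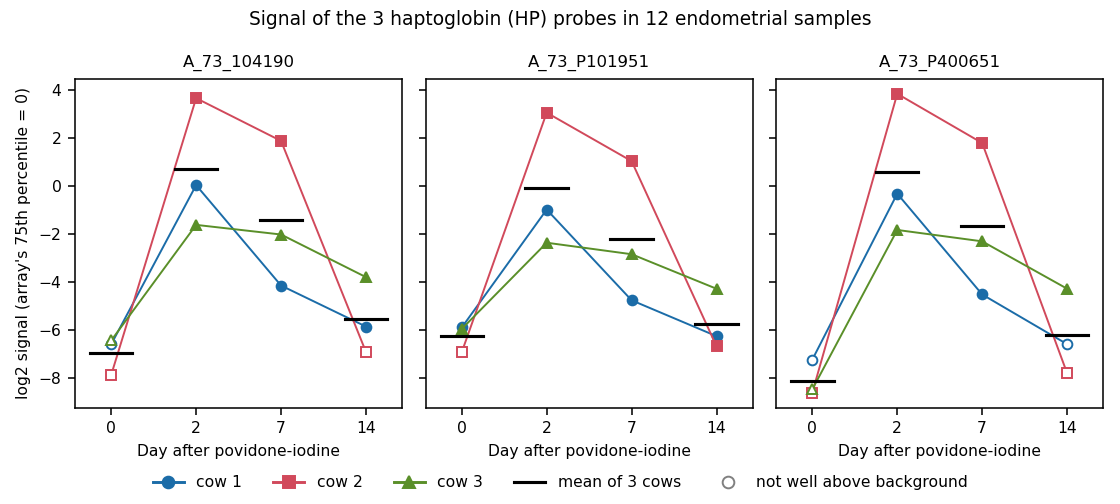
Log2 signal of the 3 HP probes by day, with 1 line per cow and a bar at the mean of 3 cows; open symbols were not well above background. Every cow was higher on days 2 and 7 than on day 0, with cow 2 highest on both days, and each cow was lower on day 14 than on day 7.

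Ceruloplasmin was higher on day 7 by similar amounts in the 3 cows. Probe A_73_100386 had -0.17, -0.47 and -0.52 (day 0), 0.90, 0.32 and -1.64 (day 2), 1.99, 1.36 and 1.78 (day 7) and -0.53, -0.34 and -0.26 (day 14) in cows 1, 2 and 3. The 3 cows on day 7 were above every cow on the other days. CP rose on day 7, when this probe averaged 1.71 ± 0.32, against -0.39 ± 0.19 on day 0 (SD, n = 3 each). The log2 change was 2.09 ± 0.49 (SE; adjusted p = 0.0250, limma), a 4.27-fold rise. In cows 1, 2 and 3 it was 2.15, 1.83 and 2.29.

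The other 3 CP probes rose as well, by 2.51 ± 0.54 (A_73_P192902, adjusted p = 0.0195, limma), 2.50 ± 0.45 (A_73_P299321, 0.0113) and 2.10 ± 0.32 (A_73_P415161, 0.00633). Probes at the beginning, middle and end of the transcript thus gave log2 changes between 2.09 and 2.51. On day 2 against day 0 the CP changes were between 0.25 and 0.54, with adjusted p from 0.363 to 0.811. The cows split on day 2: cows 1 and 2 were higher than on day 0 and cow 3 lower on each of the 4 probes. The day 2 array of cow 3 was also the array with the lowest share of probes above background, and the part of this in the CP value was not tested.

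On day 7 against day 2, CP had changes of 1.55 to 2.10, but 0 of 4 passed (adjusted p from 0.0714 to 0.116, limma). Over the 20 acute phase probes 0 passed (7 at an unadjusted p under 0.05), and 0.486% of all probes were called. On day 14 against day 7 the changes were -2.16 to -2.09, lower in all 3 cows, and again 0 of 4 passed (adjusted p from 0.0549 to 0.115). Over the 20 probes 0 passed (10 at an unadjusted p under 0.05), against a background of 0.146%. On day 14 against day 0 the CP changes were 0.00 to 0.35.

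A2M rose on day 7 on both tested probes. Probe A_73_P050731 had -3.64, -4.04 and -4.45 (day 0), -0.89, -1.89 and 1.03 (day 2), 1.75, -0.31 and -2.08 (day 7) and -2.12, -2.38 and -0.07 (day 14). Every cow was above all day 0 values on each later day, but the cows changed places: cow 3 was the highest on days 2 and 14 and the lowest on day 7. The log2 change on day 7 was 3.83 ± 1.04 (SE, n = 3 cows; adjusted p = 0.0385, limma) and that of A_73_P389331 was 3.70 ± 1.05 (adjusted p = 0.0440).

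On day 2 the same A2M probes had 3.46 and 3.35 (adjusted p = 0.116 and 0.126, limma), and on day 14 2.52 and 2.39 (0.223 and 0.245). A2M was the gene with the highest log2 change on day 14 among the 8, still short of the threshold. The other 3 A2M probes match the transcript at bases 528, 993 and 2659, upstream of the tested pair at 4128 and 4655. They were well above background on 1, 0 and 1 of 12 arrays, in both cases the day 7 array of cow 1, where A_73_P050731 also had its highest value.

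A1BG, measured by 1 probe, had -4.98, -4.62 and -5.02 (day 0), -2.73, -1.65 and -4.10 (day 2), -3.35, -1.37 and -0.66 (day 7) and -4.51, -2.72 and -4.55 (day 14). All 3 cows were above all day 0 values on each later day. A1BG rose on day 7, by a log2 change of 3.08 ± 0.67 (SE, n = 3 cows; adjusted p = 0.0198, limma), or 8.43-fold. The change on day 2 was 2.05 ± 0.67 (adjusted p = 0.141), on day 14 against day 7 it was -2.13 (adjusted p = 0.170), and on day 14 against day 0 it was 0.95 (adjusted p = 0.450).

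LBP was highest in a single sample. Probe A_73_104583, the only LBP probe tested, had -5.50, -5.85 and -5.34 (day 0), -4.80, -5.10 and -3.82 (day 2), -4.68, -4.89 and -0.51 (day 7) and -5.04, -4.74 and -4.67 (day 14). The 3 cows on day 7 were above all day 0 values. Relative to its own day 0 sample, cow 1 was 0.82, cow 2 0.97 and cow 3 4.83 log2 units higher. The log2 change was 2.20 ± 0.78 (SE; adjusted p = 0.0828, limma) and did not pass. Without the day 7 array of cow 3 it was 0.97 (adjusted p = 0.0593, limma), an alternative chosen after the data had been seen. Without all arrays of cow 3 it was 0.89 and passed (adjusted p = 0.0436, limma), with both remaining cows higher on day 7.

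The other 4 LBP probes were at background almost throughout. On the day 7 array of cow 3 all 4 were well above it, with log2 signals of 0.25 (A_73_P110026), -1.70 (A_73_P255221), -3.58 (A_73_P314201) and -4.85 (A_73_P404941). On the other 11 arrays A_73_P110026 lay between -8.83 and -6.11 and was well above background only in cow 2 on day 2. The remaining 3 probes lay between -9.02 and -6.98 on those arrays. All 5 LBP probes, over transcript bases 681 to 1755, were thus highest on the same array.

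**Figure D3:**
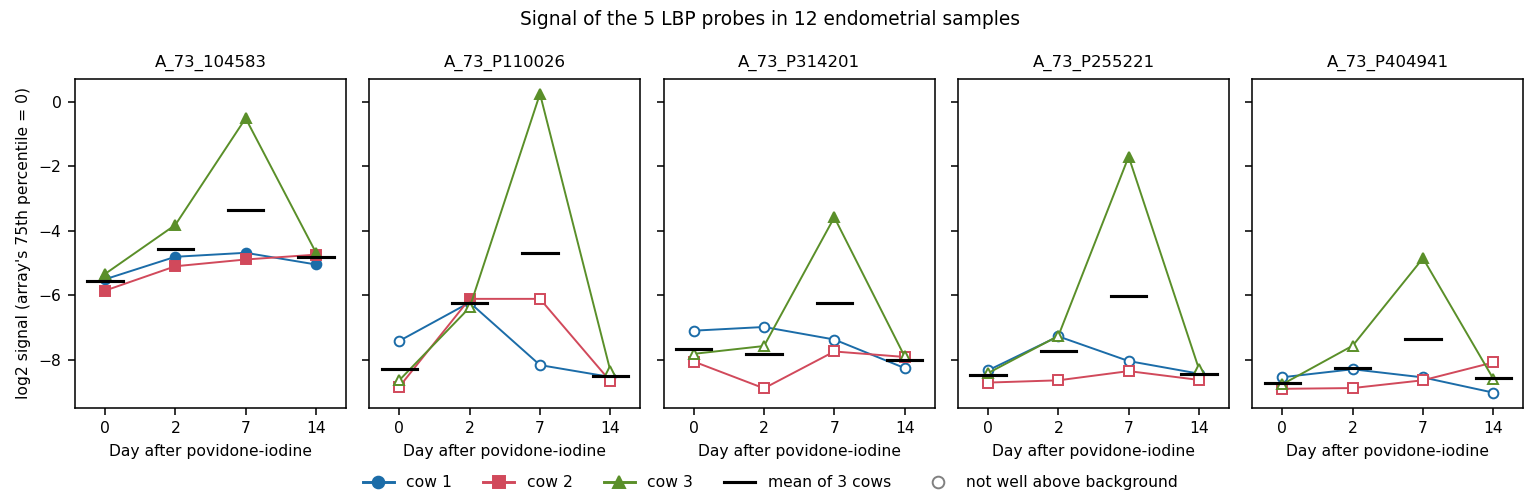
Log2 signal of the 5 LBP probes by day, with 1 line per cow and a bar at the mean of 3 cows; open symbols were not well above background. The day 7 sample of cow 3 is the highest point of every panel, and 4 of the 5 probes were otherwise at background, apart from 1 array of cow 2 on day 2.

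LTF varied widely between cows within a day. Probe A_73_116655 had 4.36, 5.46 and 1.67 (day 0), 5.98, 5.72 and 4.00 (day 2), 2.33, 4.99 and 6.48 (day 7) and 3.24, 2.67 and 6.30 (day 14) in cows 1, 2 and 3. Cow 3 had the lowest value of all on day 0 and the highest on days 7 and 14. On day 7 it was 4.81 log2 units above its own day 0 sample, whereas cow 1 was 2.04 and cow 2 0.47 below theirs. None of the 5 LTF probes passed in any of the 5 comparisons. For A_73_116655 the log2 change was 1.40 ± 1.42 on day 2 (adjusted p = 0.610, limma), 0.77 ± 1.42 on day 7 (0.735) and 0.24 ± 1.42 on day 14 (0.940).

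The 5 LTF probes followed each other, with correlations of 0.977 to 0.999 over the 12 arrays. The spread between cows was therefore seen at transcript bases 316, 989, 2067, 2169 and 2349 alike. On day 2 all 3 cows were above their own day 0 level on 4 of the 5 probes.

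LCN2 was measured by probe A_73_101987, with -3.47, -3.51 and -3.49 (day 0), -1.98, -2.05 and -2.82 (day 2), -0.43, -2.84 and -3.00 (day 7) and -3.28, -3.36 and -2.84 (day 14). The day 0 samples lay close together (SD 0.02), and every later sample was above them. Cow 1 on day 7 stood highest. The log2 change was 1.20 ± 0.54 (SE, n = 3 cows) on day 2 (adjusted p = 0.248, limma), 1.40 ± 0.54 on day 7 (adjusted p = 0.104) and 0.33 on day 14 (adjusted p = 0.757).

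PTX3 took a different course, higher on day 2 and lower on day 7. Probe A_73_102935 had -0.43, -0.42 and -0.70 (day 0), 1.46, 1.61 and 0.05 (day 2), -1.43, -0.92 and -2.58 (day 7) and 1.56, -0.71 and -1.54 (day 14). All 3 cows on day 2 were above, and all 3 on day 7 below, every day 0 sample, while day 14 spread across them. The log2 change was 1.55 ± 0.54 on day 2 (adjusted p = 0.155, limma) and -1.13 ± 0.54 on day 7 (adjusted p = 0.172), neither past the threshold.

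The largest PTX3 difference was between day 7 and day 2, at -2.68 ± 0.54 (SE, n = 3 cows) on A_73_102935, a 6.43-fold lower mean on day 7. It was -2.63 and -1.92 on the other PTX3 probes. The adjusted p values were 0.0691, 0.0847 and 0.151 (limma), so 0 of 3 passed. PTX3 was the only gene of the 8 whose probes had negative log2 changes on day 7 against day 0, at -1.13, -1.43 and -0.93. On day 14 against day 7 its changes were 1.41, 1.65 and 1.00.

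**Figure D4:**
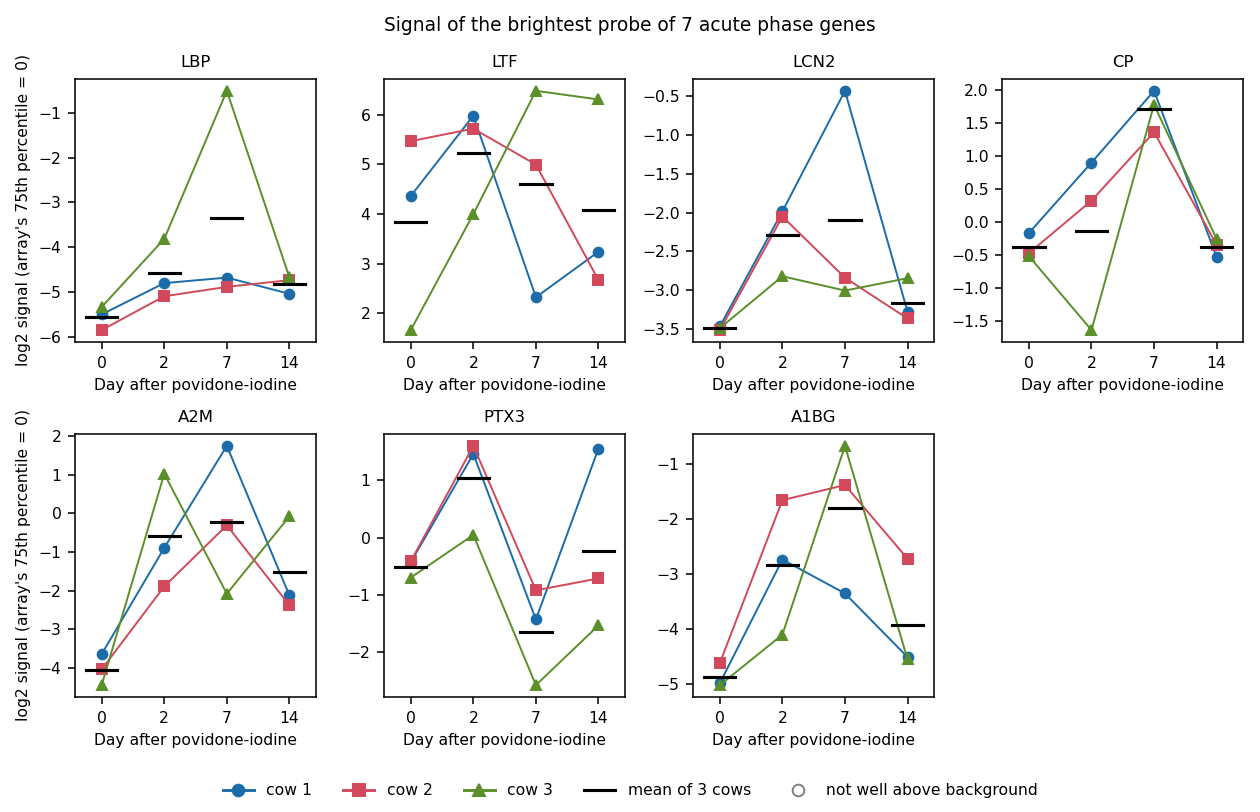
Log2 signal of 1 probe each of LBP, LTF, LCN2, CP, A2M, PTX3 and A1BG by day, with 1 line per cow and a bar at the mean of 3 cows. CP on day 7 lies between 1.36 and 1.99 in the 3 cows, LBP on day 7 is high in cow 3 alone, LTF crosses between cows, and PTX3 is higher on day 2 than on day 7 in each cow.

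The highest sample of a day came from different cows for different genes. On day 7, by the probe with the highest mean of each gene, cow 1 was highest for CP, A2M and LCN2, cow 2 for HP and PTX3, and cow 3 for LBP, LTF and A1BG. Over the 12 arrays the probes of different genes correlated between -0.51 (LBP with PTX3) and 0.72 (LCN2 with A2M), with 0.71 for HP with A1BG and 0.68 for CP with A1BG. These arrays share cows, slides and days, and the correlations are descriptions only.

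The genes closest to 7 of the 8 over the 12 arrays were sought among 12187 other named genes, with Pearson's r as the measure. CP was close to UBQLN1 (0.935) and HAS3 (0.920), A2M to SLIT2 (0.943), RASSF5 (0.938) and HK3 (0.923), and A1BG to PSMD10 (0.971), FAM98A (0.962) and VKORC1 (0.951). LBP was closest to TRIT1 (0.947), CCDC184 (0.907) and MYL4 (0.902), and LTF to INTS4 (0.923), INHCA (0.922) and MMD2 (0.912). For LCN2 they were UPK3B (0.895), RHOG (0.880) and SIRPB1 (0.871), and for PTX3 SMIM29 (0.919), LAMTOR1 (0.909) and CRIP1 (0.844). These values, among the highest of 12187 over 12 arrays that share cows and slides, are descriptions.

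Among cytokines that drive acute phase synthesis, 2 of 4 tested genes rose on day 7 and 0 on day 2, where 10.3% and 1.63% of all probes rose. The median log2 change of the 4 on day 7 was 1.47. IL6 rose by a log2 change of 2.61 ± 0.76 (adjusted p = 0.0479, limma) and TNF by 1.40 ± 0.32 (0.0237). IL1B had 1.55 (0.158) and IL1A 1.19 (0.161). The other 4 of the 8 such genes on the array, OSM (oncostatin M), LIF, IL17A and IL22, were not tested. They were not well above background on any array. Of 16 receptors and transcription factors of this pathway, 4 rose on day 7 and 1 on day 2, and 0 fell, with a median of 0.76 on day 7. OSMR, the receptor subunit for oncostatin M, rose by 2.05 ± 0.28 on day 2 (adjusted p = 0.0180) and 2.04 ± 0.28 on day 7 (0.00499). On day 7 IL1R1, an interleukin 1 receptor, rose by 1.83, the transcription factor gene CEBPB by 0.90 and NFKBIZ by 0.88. STAT3, which carries the interleukin 6 signal, had 0.69 (adjusted p = 0.0645).

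Of 16 other positive acute phase protein genes tested, 6 rose on day 7 and 1 on day 2, where 10.3% and 1.63% of all probes rose, and 0 fell. CFB, complement factor B, rose by 3.32 ± 0.69 on day 2 (adjusted p = 0.0483, limma) and 4.12 ± 0.69 on day 7 (0.00896). C4BPA, a complement inhibitor subunit, rose by 5.26 ± 0.89 on day 7 (0.00932) and C3, the central complement protein, by 1.97 ± 0.54 (0.0401). KNG1 (kininogen), ITIH3 and SERPINA3-6 were not well above background on any day 0 array and rose on day 7 by at least 3.18-fold, 2.70-fold and 2.05-fold. These 3 of the 6 entered the test only through arrays of later days.

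The median log2 change of these 16 genes was 1.08 on day 7 and 0.63 on day 2. Serum amyloid A genes did not pass: SAA3 had 0.91 on day 2 and -0.30 on day 7, and SAA1 0.50 and -0.64. Nor did ORM1 (0.33 and 0.25), which encodes an acid glycoprotein, or ITIH4 (-1.49 and 0.45). SERPINA1, the antitrypsin gene, had 5.31 on day 2 (adjusted p = 0.144) and 5.91 on day 7 (0.0514).

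Of 7 tested negative acute phase genes, whose plasma proteins decline in inflammation, 2 rose and 1 fell on day 7. On that day 10.3% of all probes rose and 7.88% fell. TTR (transthyretin) rose by 3.36 ± 0.89 (adjusted p = 0.0357, limma) and SERPINC1 (antithrombin) by 1.58 ± 0.31 (0.0137), while ALB (albumin) was at least 2.03-fold lower (0.0110) and not well above background on any day 7 array. On day 2, 0 of the 7 passed.

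Among 14 receptors and binding partners of the proteins, 3 rose on day 7 and 1 on day 2. Over all probes 10.3% rose on day 7 and 1.63% on day 2, and the median log2 change of the 14 on day 7 was 0.64. BPI, an antibacterial relative of LBP, rose by 2.93 ± 0.59 on day 2 (adjusted p = 0.0457, limma) and 2.46 ± 0.59 on day 7 (0.0268). CD14, which takes up lipopolysaccharide from LBP, rose by 1.81 ± 0.43 on day 7 (0.0257). ITIH1 was 7.69-fold over its day 0 bound (0.0296), which is no strict minimum, with 2 of 3 day 7 arrays measured. It was not well above background on any day 0 array and entered the test only through later days. CD163, the scavenger receptor for haptoglobin bound to haemoglobin, had 1.54 on day 2 (0.142) and 0.58 on day 7 (0.455).

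Of 15 genes of iron, copper and haem handling, 3 rose on day 2 and 4 on day 7. Over all probes 1.63% rose on day 2 and 10.3% on day 7, and the median log2 change of the 15 was 0.37 on day 2 and 0.18 on day 7. SLC11A1, a metal transporter of the phagosome, was at least 21.2-fold higher on day 2 (adjusted p = 0.0116, limma). On day 7 it was 3.02-fold over its day 0 bound (0.0122), which is no strict minimum, with 2 of 3 arrays measured. It was not well above background on any day 0 array, so it entered the test only through later days. The metallothionein genes MT2A (2.33 and 2.95) and MT1A (1.52 and 1.65) rose on days 2 and 7, and STEAP3, an iron reductase, by 1.24 on day 7. On day 14, 0 genes of any of these lists passed against day 0.

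Some markers of other cell types also passed the threshold on days 2 and 7. Of 13 macrophage and monocyte markers tested, CD68 rose on day 2, where 1.63% of all probes rose. On day 7, 6 (CD68, CD14, CD86, CSF1R, FCGR1A and SPI1) rose, where 10.3% of all probes rose. The mean log2 signal of the 13 was -1.20 to -0.91 (day 0), 0.05 to 0.46 (day 2), -0.91 to 1.01 (day 7) and -1.60 to 0.04 (day 14). Cow 3 had the lowest mean of the 3 cows on day 7, when it had the highest LBP, LTF and A1BG and the lowest A2M, LCN2 and PTX3. Cow 1 had the highest mean on that day, with the highest CP, A2M and LCN2 and the lowest HP, LTF and A1BG. The part of macrophages in the changes above was not tested.

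Of 12 neutrophil markers tested, S100A12 rose on day 2, where 1.63% of all probes rose. On day 7, 3 rose, among them S100A12 and TGM3, and CATHL5 fell, where 18.2% of all probes were called. Of the 21 neutrophil markers on the array, CTSG, CATHL3, CATHL4, CAMP and CD177 were well above background on 0 of 12 arrays. The chemokine receptor genes CXCR1 and CXCR2 were above it on 1 and 2 arrays. The mean of the 12 was -4.47 to -4.18 (day 0), -4.08 to -3.18 (day 2), -4.28 to -3.23 (day 7) and -4.18 to -3.53 (day 14), and its part in the changes above was not tested.

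Of 10 hepatocyte markers, APOB, F9 and CPS1 were detected above background on 0 arrays of the 12 and APOH on 1. The 6 that were tested had mean signals of -5.51 to -5.31 (day 0), -4.65 to -3.72 (day 2), -4.43 to -3.91 (day 7) and -5.26 to -4.38 (day 14). Of these, TTR and SERPINC1 rose and ALB fell on day 7, where 10.3% of all probes rose and 7.88% fell.

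Of 6 endothelial markers, PECAM1 rose by 1.13 on day 2 and 1.18 on day 7. On day 7 VWF was 1.21-fold over its day 0 bound, which is no strict minimum, with 2 of 3 arrays measured. VWF was not well above background on any day 0 array and entered the test only through later days. Over all probes 1.63% rose on day 2 and 10.3% on day 7. Of 11 epithelial markers only SERPINA14 rose on day 7, by 8.09, and of 7 T cell markers only CD2, by 0.86. Counts of 1 in lists of 11 and 7 are near the day 7 share of all probes. Of 10 stromal markers 0 passed on day 2, 7 or 14. The 4 tested erythroid markers had means of -4.56 to -4.34 (day 0), -4.30 to -4.15 (day 2), -5.53 to -3.85 (day 7) and -2.80 to -2.58 (day 14). Each cow's mean was thus higher on day 14 than that of any cow on the other days. Even so, 0 of the 4 passed on day 14 against day 0. AHSP fell by 0.70 on day 7, where 7.88% of all probes fell. The part of these cells in the changes above was not tested.

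**Figure D5:**
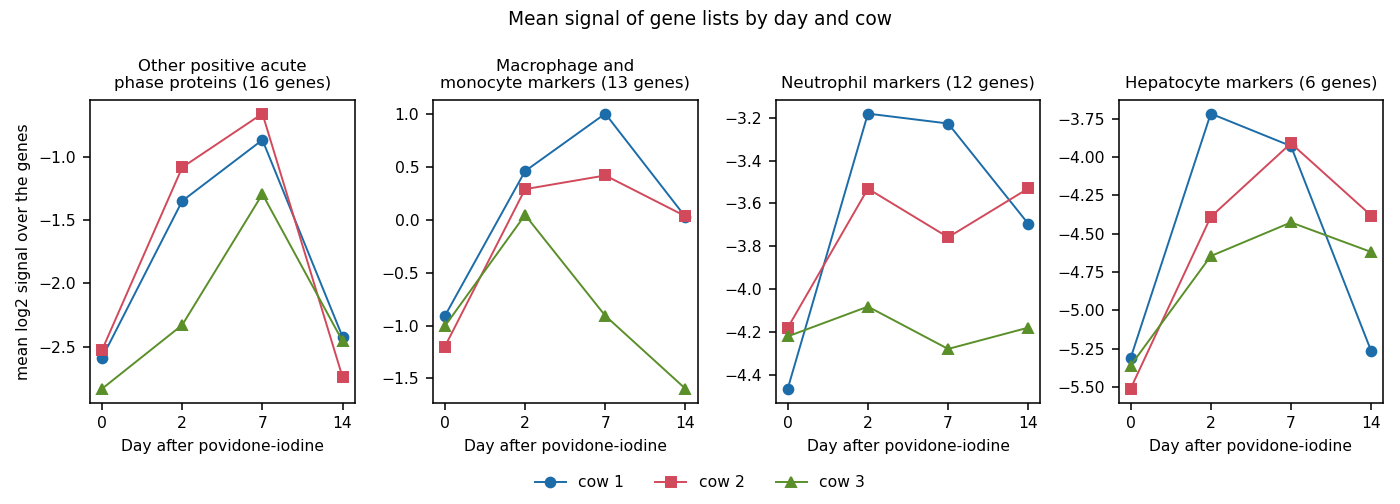
Mean log2 signal over the tested genes of 4 lists by day, with 1 line per cow. The means of the other positive acute phase proteins on day 7 lie between -1.29 and -0.66, above those of day 0 and day 14 in each cow, and the macrophage means of cow 3 are below those of the other cows on days 7 and 14.

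The calls rest on the cow and day of each array. By the sample names of the file links, 0 of the 20 probes passed on day 2 and on day 7 against day 0. Of all 33539 probes 0 passed on either day, with 338 on day 2 and 1775 on day 7 at an unadjusted p under 0.05 (limma). The file links gave 237 calls on day 14 against day 0 and 215 on day 14 against day 7, against 44 and 49 by the value table, with 0 of the 20 among them. With any 1 cow left out, 0 of the 20 passed on day 2, where 0, 0 and 825 of all probes passed without cow 1, 2 and 3. HP probe A_73_P400651 then had log2 changes of 9.54, 6.77 and 9.68, against 8.66 with all cows. On day 7, 0 passed without cow 1 and 0 without cow 2, where 0 and 213 of all probes passed, and 8 of the 20 passed without cow 3. Those 8 included the LBP probe and no HP probe (adjusted p from 0.0831 to 0.132). Without the day 7 array of cow 3, 5 passed on day 7: a pair of CP probes, both A2M probes and A1BG. With normexp background correction and quantile normalization 5 passed as well, the 4 CP probes and A1BG, while HP had adjusted p values of 0.130 to 0.186 and A2M of 0.0687 and 0.0885.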

How the data were processed

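RNA of 12 endometrial samples (3 cows on each of 4 days) was hybridised to one-colour arrays. The deposited scanner files hold processed intensity per spot, from Agilent's scanner software Feature Extraction. Its version is 11.5.1.1 in the file headers but 10.5.1.1 in the submitters' processing notes. Per the file headers, the intensity was background-subtracted and detrended within each array, and it was not scaled between arrays. The deposited value table is on a log2 scale. The sources used here do not say how it was made, so its scale, centring and direction were set by comparison with the scanner files, from which it differed by a median of no more than 0.00311 (absolute) after subtraction of each probe's median over the arrays. The medians of its columns lay between -0.0735 and 0.0782.

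From log2 intensity the 75th percentile of the non-control spots of the array (825 to 1119 in intensity) was subtracted. Spots of a probe were averaged, 1417 control spots and 31 of 43653 probes with outlier flags were left out, and probes well above background on at least 3 arrays were tested (33539). A linear model with day and cow as terms was fitted to the 12 arrays with limma 3.58.1 in R 4.3.3 (residual degrees of freedom 6, prior 2.33). The 5 comparisons were adjusted by Benjamini-Hochberg over all tested probes, with a threshold of 0.05. The script was tested on simulated data. The block comes from the design text, by which the same animals were biopsied each time. As a check, the 18 same-cow pairs of arrays had a mean correlation of 0.285 in their deviations from day means (15 above 0.1, lowest 0.0235). Different cows had -0.136, but subtracting the day means forces this value below 0 when the same-cow value is above it. It is therefore no separate evidence. Each slide held the samples of a single cow, so the check cannot tell cow from slide.

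The probe with the highest mean stood for each gene of a list, listed genes that passed were named up to 6 per list by size of change, and the 3 genes with the highest r were named per acute phase gene, except for a few genes that are not reported here. Listed genes named without passing were chosen after their values had been seen. Some older symbols were updated through a RefSeq gene table, used for names only. The genes and lists were chosen with earlier results of these data known. The number of arrays limits the precision. Alternatives were the file links, no block, a random block, each cow left out, single arrays left out, other normalizations and filters, the value table, only the days compared, and array weights.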

Additional observations from a re-analysis of the deposited data

How the results depend on the processing

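On day 2 against day 0 the count of acute phase probes past the threshold was 1 of 20. It was 0 under the file links, without the day 2 array of cow 3, with normexp and quantile normalization, and with only the days compared. Without a filter on dim probes it was 0 of 28. A filter for detection on all arrays gave 0 of 14, but it removed every HP probe, so the called probe was not tested. The count was 2 with cow as a random block, 5 with array weights and 3 without the day 7 array of cow 3, which was added after the data had been seen. On day 7 against day 0 (9 of 20) it was 0 under the file links, 5 with normexp and quantile normalization and 5 without the day 7 array of cow 3. It was 6 of 28 without a filter on dim probes and 6 of 14 with detection on all arrays, where HP was not tested. With only the days compared it was 6, with quantile normalization 8, and with array weights 10, where 10429 of all probes passed. Leaving out 1 cow at a time gave 0 each time on day 2 and 0 to 8 on day 7. Day 14 against day 0 gave 0 under all alternatives run. Day 7 against day 2 (0) gave 7 with array weights and 0 to 1 with a cow left out. Day 14 against day 7 (0) gave 1 with cow as a random block, 3 without the day 2 array of cow 3, 1 with normexp and quantile normalization and 13 with array weights. With array weights 5084, 10134 and 9388 of all 33539 probes passed on day 2 against day 0, day 7 against day 2 and day 14 against day 7, so the counts of 5, 7 and 13 stand against a high background. Without the replicate block the counts were 1, 9, 0, 0 and 0 for the 5 comparisons, so the block changed no count of the 20 probes. Over all probes it did: without it, 427 passed on day 2 against day 0 and 4453 on day 7 against day 0. With the block, 846 and 6098 passed.

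Of 557 alternative values of 38 single-probe results, 18 changed sign, all under the file links. On day 2 against day 0 the A2M probes then had log2 changes of -1.76 and -1.82. On day 7 against day 0, HP had -0.26 (A_73_104190) and -0.80 (A_73_P400651), LCN2 -1.27, the CP probes -0.74, -0.074, -0.28 and -0.59, the A2M probes -1.45 and -1.53, and PTX3 (A_73_P252256) 0.25. On day 14 against day 7, HP had 1.34, 0.70 and 2.02, CP (A_73_P415161) 0.027, and PTX3 -0.58 and -0.52. The file links place 10 arrays on other days or cows, and the cause of each change was not tested further. HP on day 0 was at background on 2 of 3 probes, which limits its fold changes to bounds.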

Other observations

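The array holds probes that the files describe as relatives of these genes, which the gene names above do not take in. LOC519907 and LOC526230, both described as ceruloplasmin-like, were well above background on 0 and 1 of 12 arrays, for LOC526230 on day 7. LOC514978, described as similar to lipopolysaccharide binding protein, was above it on 0 arrays. The 2 probes of LOC506828, described as similar to an alpha-2-macroglobulin precursor, were above it on 0 and 1 arrays, with the single detection on the day 7 array of cow 3 (log2 signal -4.94).

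A probe described as alpha-2-macroglobulin-like 1 was well above background on all 12 arrays. It had -2.41, -2.39 and -2.54 in cows 1, 2 and 3 on day 7, against -2.69, -2.69 and -2.78 on day 0. The log2 change was 0.27 ± 0.16 (SE; adjusted p = 0.253, limma), while both tested probes of A2M rose on that day. The difference between the genes was not tested.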
